A study of Mus musculus with 8 samples.

Results

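The glycolysis and hypoxia response genes were followed by RNA-seq in mouse embryonic stem cells driven out of pluripotency by JUN, with and without bromodomain inhibitors. The group holds 32 genes taken by name from the expression table of 50600 gene rows: glucose transporters, glycolytic enzymes, pyruvate and lactate genes, and genes of the hypoxia-inducible factor (HIF) response. All 32 were found, each on 1 row, and 28 of them reached a mean of at least 5 TPM (transcript abundance scaled to a fixed total per library) over the 8 libraries and were tested together with 10222 genes in all.

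The cells were the JUN TetOn line on an OG2 background, embryonic stem cells at passage 12 in which doxycycline switches on a JUN transgene. All 4 groups were in 2i/LIF medium and received 2 µg/ml doxycycline, the DMSO controls included, so each comparison is between induced cells and no uninduced library was analysed here. The groups were DMSO (the solvent), PFI-3 (which binds the bromodomain of BRG1, the ATPase of the BAF chromatin remodeller), BI-9564 (which binds the bromodomains of BRD7 and BRD9) and P+B (both compounds), with 2 libraries each. The labels give 6 h for doxycycline together with the compound or solvent, while the study's supplement describes a longer induction than compound exposure, so the time of induction is not settled here. The doses are not given in the labels, and the dose of each compound within P+B is not settled by the sources used here, so each compound may have been more dilute in P+B than when used alone. All groups share 1 engineered line, and nothing says whether the 2 libraries of a group came from separate cultures, so p-values measure the spread between these libraries, which may be technical.

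Glycolysis splits glucose into pyruvate in the cytosol. Hexokinase traps glucose in the cell as its phosphate, phosphofructokinase commits the sugar to breakdown, and the later steps yield ATP, pyruvate and, through lactate dehydrogenase, lactate. HIF1A is kept low in oxygenated cells because the prolyl hydroxylases EGLN1 and EGLN3 mark it for destruction. When oxygen is short it pairs with ARNT at short sites with the core ACGTG or GCGTG, and many glycolytic genes are among its known targets. Mouse embryonic stem cells are known for a high glycolytic rate also in the presence of oxygen.

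For each of the 3 members that passed the adjusted p threshold in any comparison without the replicate block (Hk2, Pfkfb3 and Aldoa), 1 promoter sequence is shown. The sequences were picked from windows with a match, to place the HIF core and the AP-1 motif, the site of JUN dimers. They are RefSeq sequences of build GRCm38.p6, all on the minus strand, written 5′ to 3′ and ending next to the transcript start, except that Pfkfb3 ends 11 bases earlier, where an annotated exon begins. Capitals mark ACGTG or GCGTG on either strand (a match on the other strand reads CACGT or CACGC) and TGANTCA, the AP-1 motif.
Hk2, chr6:82774455-82774704: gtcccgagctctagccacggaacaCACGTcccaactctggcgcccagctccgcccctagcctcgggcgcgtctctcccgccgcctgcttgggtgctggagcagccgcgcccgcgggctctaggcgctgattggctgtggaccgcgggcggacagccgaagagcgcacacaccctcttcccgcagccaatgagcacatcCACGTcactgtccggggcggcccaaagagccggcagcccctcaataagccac
Pfkfb3, chr2:11502102-11502340: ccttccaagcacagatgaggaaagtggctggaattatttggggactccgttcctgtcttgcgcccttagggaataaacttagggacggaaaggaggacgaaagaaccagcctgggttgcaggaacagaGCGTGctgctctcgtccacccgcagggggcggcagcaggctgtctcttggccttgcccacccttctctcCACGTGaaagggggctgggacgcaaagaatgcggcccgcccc
Aldoa, chr7:126799255-126799504: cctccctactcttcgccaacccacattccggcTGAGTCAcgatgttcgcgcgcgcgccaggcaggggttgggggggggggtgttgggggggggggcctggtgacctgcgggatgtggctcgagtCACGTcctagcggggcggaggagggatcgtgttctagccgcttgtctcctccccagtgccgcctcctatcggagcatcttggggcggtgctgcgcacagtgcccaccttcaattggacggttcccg
The Hk2 window held 2 matches of ACGTG. The Pfkfb3 window held GCGTG and CACGTG, the latter counted on both strands, and the Aldoa window shown held 1 ACGTG and 1 AP-1 motif. Windows of other starts of Pfkfb3 and Aldoa are not shown. For Pfkfb3, chr2:11553930-11554179, next to the annotated 5′ end of the gene, held 1 ACGTG, in a part within annotated exons. For Aldoa, chr7:126800448-126800697 held 0 matches, and chr7:126799179-126799428, which overlaps the window shown, held 1 ACGTG. Among the 250 bases upstream of each start, 36 of the 46 promoters of 30 matched members (78.3%) held ACGTG or GCGTG on either strand, against 38.6% of all 32851 promoters and 58.4% of the 9946 promoters of tested genes. No promoter entry was found for Ndrg1 or Slc2a3, and Gpi1 and Tpi1 held neither core in this window. The AP-1 motif stood in 2 of the 46 (4.35%, Aldoa and Kdm3a), against 6.75% of all promoters and 4.03% of those of tested genes. These matches are letters in a window and were not linked to binding here.

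The values are TPM that were whole numbers in the table, so a gene near 5 TPM can only change in large steps, and the read depth of the libraries is unknown from such values. The libraries summed to between 991574 and 991897 and held 10285 to 10451 genes at 5 TPM or more. All 10 stem cell markers listed were tested and summed to 3555 to 5485 TPM in each library (Pou5f1 stood at 1104 to 1333), with the lower sums in the replicate 2 library of every group. Under P+B 7 of them had a negative and 3 a positive log2 fold change (median -0.17). Tdgf1 was lower past both thresholds given below (163 and 156 TPM in DMSO, 221 and 196 under PFI-3, 101 and 76 under BI-9564, 82 and 84 under P+B). Esrrb was higher (86 and 58 in DMSO, 141 and 100 under P+B) and passed only with the replicate block. The 10 fibroblast or feeder markers summed to 1 to 7 TPM with 4 of them at 0 throughout, and 8 primitive endoderm markers summed to 3 to 10. Of 8 trophectoderm markers 3 were tested, and the list summed to 285 and 216 TPM in DMSO and to 98 and 70 under P+B. The keratins Krt8 (163 and 114 TPM in DMSO, 53 and 30 under P+B) and Krt18 (103 and 89, 27 and 20) were lower. The third tested marker, Tfap2c, was higher without passing (8 and 5, 11 and 8). Among untested markers Cdx2 was higher (1 and 0, 5 and 10). Gata3 (6 and 2, 1 and 1) and Hand1 (4 and 6, 1 and 1) were lower. Jun stood between 1569 and 3011 TPM and was higher in the replicate 2 library of all 4 groups. The part of these markers and of Jun in the results on glycolysis genes was not tested.

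The members covered a wide range of levels, from a mean of 1.75 TPM for Egln3 to 7159 for Gapdh. Gapdh (glyceraldehyde-3-phosphate dehydrogenase) ranged from 6582 to 7600 TPM and Pkm (pyruvate kinase) from 1604 to 1820. They were followed by Eno1, Aldoa, Pgam1 and Ldha, each between 564 and 1105 TPM in all libraries. The 32 genes made up 1.32% to 1.5% of a library's TPM. The 4 members under the filter were Aldoc (2 to 8 TPM), Ankrd37 (1 to 5), P4ha2 (2 to 5) and Egln3 (0 to 3), and they were not tested.

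**Figure D1:**
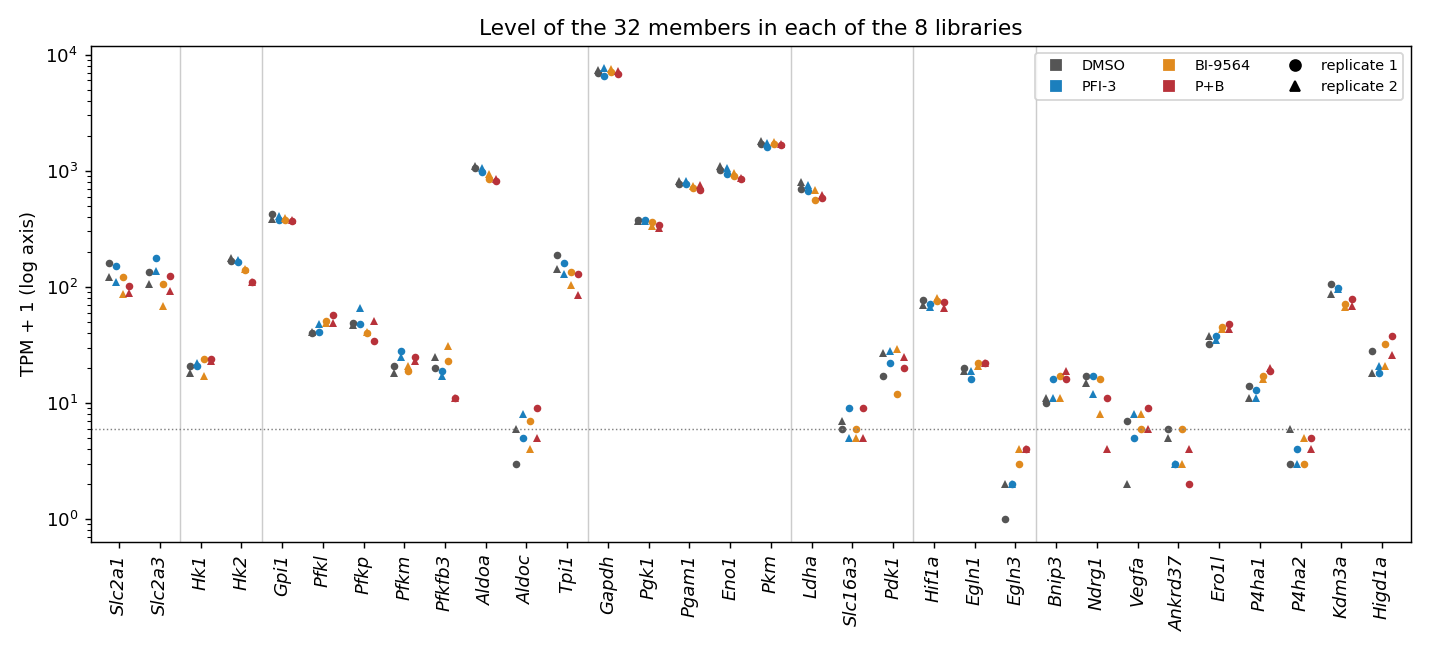
Level of each of the 32 members (TPM + 1, log axis) in the 8 libraries, ordered by role from glucose transporters at the left to HIF targets at the right; colours are the 4 groups, circles replicate 1 and triangles replicate 2, and the dotted line is at 5 TPM. Gapdh lies between 6582 and 7600 TPM in all 8 libraries, and Egln3 does not exceed 3.

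In the comparison of P+B against DMSO, Hk2 and Pfkfb3 fell, and Aldoa fell by less than the fold threshold. The call required an adjusted p under 0.05 (limma across all tested genes, Benjamini-Hochberg) and a fold of at least 1.5 on the log2(TPM + 1) scale. In this comparison 4% of all tested genes were called, 2.72% as lower and 1.28% as higher. Of the 28 tested members 2 were called lower and 0 higher, and 14 had an unadjusted p under 0.05, against 2306 of the 10222 genes. The members' median log2 fold change was -0.09 (17 lower, 11 higher), and that of all genes was 0.06. The 2 P+B libraries lay below both DMSO libraries in 12 members (42.9%, against 18.9% of all genes) and above them in 7 (25%, against 28.6%).

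Hk2 (ENSMUSG00000000628.10, chr6:82725025-82774454, minus strand) codes for hexokinase 2, the inducible hexokinase. It stood at 165 and 175 TPM in DMSO, 164 and 171 under PFI-3, 140 and 142 under BI-9564, and 110 and 109 under P+B. The P+B libraries lay below all other libraries and the BI-9564 libraries between them and the rest. Its mean under P+B fell by 35.6%, a log2 fold change of -0.63 ± 0.08 (SE; limma, adjusted p = 0.00547). Against PFI-3 the change was -0.61 ± 0.08 (adjusted p = 0.0169), a call made for 1.31% of all genes. Against BI-9564 it was -0.36 ± 0.08 and did not pass (adjusted p = 0.231), nor did BI-9564 against DMSO (-0.27 ± 0.08, adjusted p = 0.201). The call against DMSO was lost without DMSO replicate 2 (change of -0.59) and without P+B replicate 2 (-0.62). It was also lost after quantile normalization, where the change was -0.56 and under the fold threshold. With only the 4 libraries compared it was lost as well (limma, adjusted p = 0.1). The call against PFI-3 was lost when a library of PFI-3 or P+B was left out (adjusted p between 0.0903 and 0.131). Hk1, the hexokinase of most tissues, was at 16 to 23 TPM in all groups. Its P+B libraries (23 and 22 TPM) lay above those of DMSO (20 and 17), and its change of 0.27 ± 0.19 did not pass (adjusted p = 0.446).

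Pfkfb3 (ENSMUSG00000026773.19, chr2:11471433-11554077, minus strand) makes fructose 2,6-bisphosphate, the strongest activator of phosphofructokinase. It stood at 19 and 24 TPM in DMSO, 18 and 16 under PFI-3, 22 and 30 under BI-9564, and 10 and 10 under P+B. Both P+B libraries were below every other library, and those under BI-9564 overlapped DMSO. Its mean under P+B fell by 53.5%, a log2 fold change of -1.02 ± 0.20 (adjusted p = 0.0293). It differed by -1.28 ± 0.20 from BI-9564 (adjusted p = 0.0727, and 0.0289 with the replicate block, which made it a call) and by -0.71 ± 0.20 from PFI-3 (adjusted p = 0.131). The call against DMSO did not pass when any library of DMSO, PFI-3 or P+B was left out (changes between -1.18 and -0.86). It was also lost without a filter on low values (limma, adjusted p = 0.0755) and with only the 4 libraries compared (limma, adjusted p = 0.142).

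The 3 phosphofructokinase genes code for the enzyme that this product activates. Pfkl stood at 39 and 40 TPM in DMSO, 40 and 47 under PFI-3, 50 and 48 under BI-9564, and 56 and 48 under P+B. Its P+B libraries were above DMSO, by 0.38 ± 0.13, which did not pass (adjusted p = 0.134). Pfkm was above DMSO under PFI-3 by 0.44 ± 0.16 (27 and 24 against 20 and 17 TPM, adjusted p = 0.642), and its P+B libraries (24 and 22 TPM) were also above DMSO. Pfkp overlapped DMSO under P+B (48 and 46 TPM in DMSO, 33 and 50 under P+B). None of the 3 passed in any comparison in either fit.

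Aldoa codes for aldolase A, which splits the 6-carbon sugar phosphate. It stood at 1045 and 1105 TPM in DMSO, 965 and 1052 under PFI-3, 848 and 936 under BI-9564, and 814 and 844 under P+B. The P+B libraries lay below all others. The log2 fold change under P+B was -0.37 ± 0.08 (adjusted p = 0.0338), past the p threshold like 4.89% of all genes but under 1.5-fold, and its adjusted p was between 0.0503 and 0.159 with any single library left out. GENCODE M21 lists the name Aldoa at 2 places on chromosome 7, at 126795234 to 126800751 and at 126800790 to 126809108, and the table holds 1 row of that name.

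**Figure D2:**
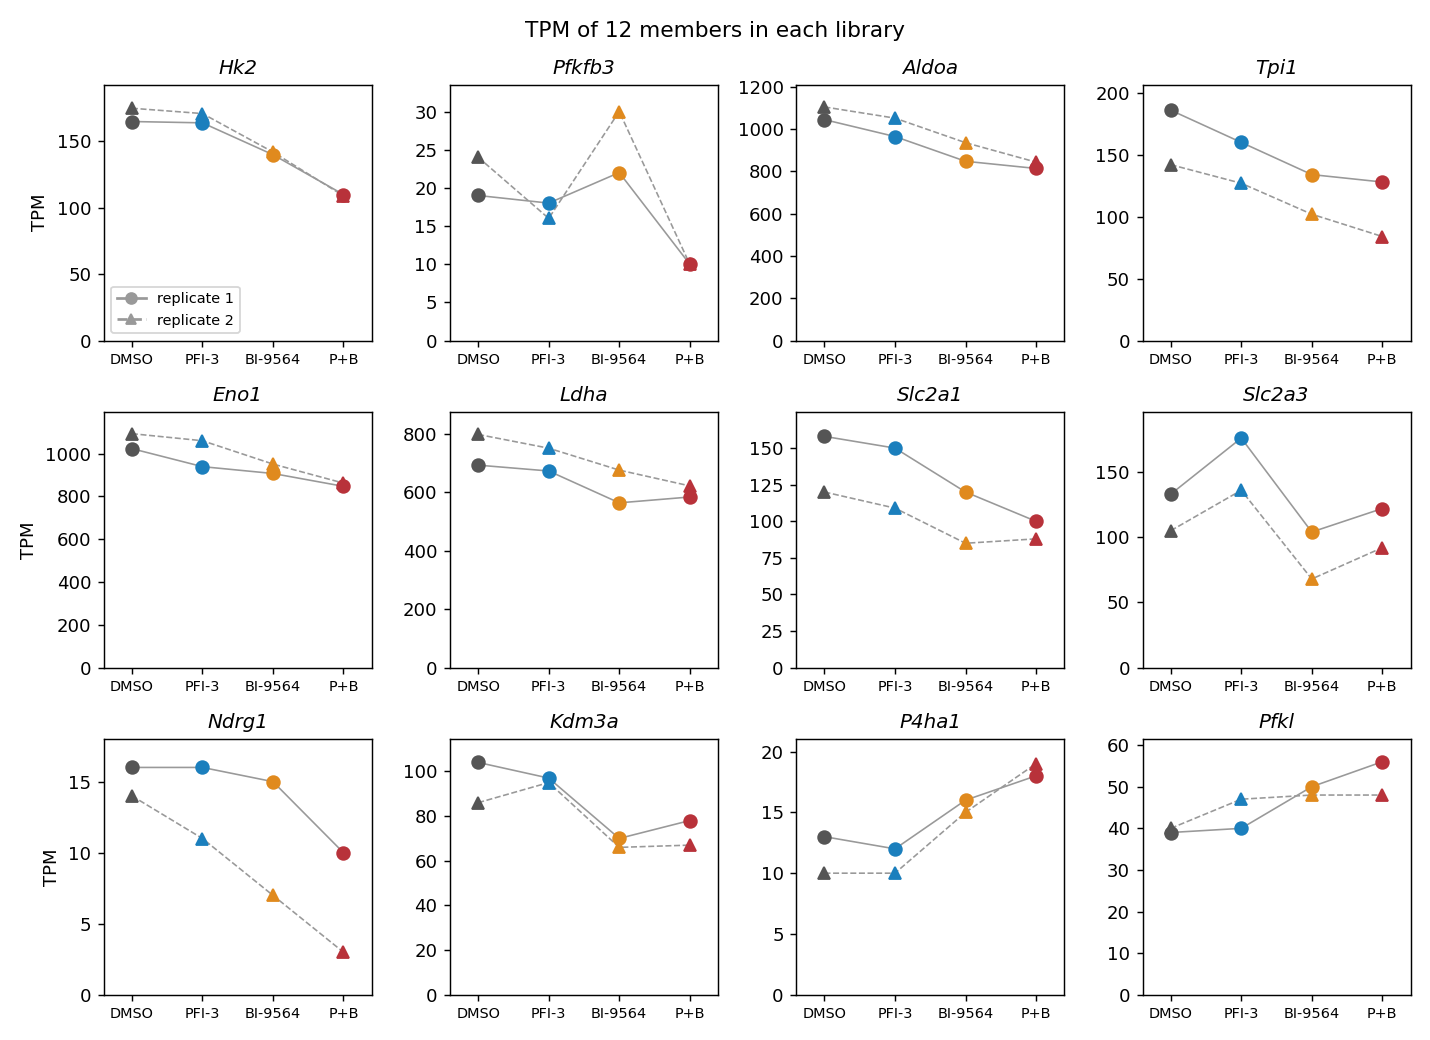
TPM of 12 members in each library (vertical axes from 0), with replicate 1 as circles on a solid line and replicate 2 as triangles on a dashed line. Hk2 and Pfkfb3 have their lowest values under P+B, at 109 and 110 TPM and at 10 TPM, while Slc2a3 has its highest mean under PFI-3 and its lowest under BI-9564.

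Tpi1, triosephosphate isomerase, differed between the libraries of every group. It stood at 186 and 142 TPM in DMSO, 160 and 127 under PFI-3, 134 and 102 under BI-9564, and 128 and 84 under P+B. Within each replicate number the order from DMSO down to P+B was the same. Its change under P+B was -0.64 ± 0.23 and did not pass (adjusted p = 0.15), and with the replicate number as a block it did (SE 0.08, adjusted p = 0.00427). The change was -0.94 without P+B replicate 1 and -0.34 without P+B replicate 2. Gpi1, the isomerase of the step before phosphofructokinase, differed by -0.10 ± 0.08 (adjusted p = 0.48).

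With the replicate block, P+B against DMSO had 4 members called lower (Hk2, Pfkfb3, Tpi1 and Ndrg1) and 0 higher, and 7.02% of all genes were called, 4.1% as lower. With the block 9 members had an adjusted p under 0.05, all lower, against 6.73% of all genes lower by that criterion.

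The 5 genes of the later steps of the pathway all had negative log2 fold changes under P+B, from -0.31 to -0.04, and none passed. Eno1 (enolase 1) stood at 1023 and 1093 TPM in DMSO, 939 and 1060 under PFI-3, 907 and 951 under BI-9564, and 847 and 862 under P+B. Its P+B libraries were below all others, and the change of -0.31 ± 0.08 missed the threshold (adjusted p = 0.0602, and 0.00838 with the block, under 1.5-fold). Pgk1, phosphoglycerate kinase, differed by -0.18 ± 0.07 (379 and 369 TPM in DMSO, 338 and 322 under P+B, adjusted p = 0.202), and Pgam1, phosphoglycerate mutase, by -0.15 ± 0.07 (adjusted p = 0.272). Gapdh and Pkm, the most abundant members, overlapped DMSO in every compound group, with changes of -0.04 ± 0.08 and -0.06 ± 0.07 under P+B.

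Eno1 and Gapdh may share reads with near-identical copies in the table, so their own rows are uncertain. Eno1b (99.5% identical to the Eno1 transcript, mean 833 TPM) and Gm4735 (99.6%, mean 626) together held 152% of the level of Eno1. Summed with both, Eno1 stood at 2529 and 2851 TPM in DMSO and 2091 and 2228 under P+B, a change of -0.31 (adjusted p = 0.0565, and 0.00277 with the block). For Gapdh 178 copies were found in the table, of which 3 had a mean of at least 5 TPM. Gm10359 and Gm12671 had the same value as each other in all 8 libraries (193 to 444 TPM) and Gm7336 a mean of 9. Summed with these 3, Gapdh differed from DMSO by 0.0009 on the log2 scale under P+B (adjusted p = 1).

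Among the genes for the fate of pyruvate, Ldha (lactate dehydrogenase A) stood at 693 and 798 TPM in DMSO, 673 and 751 under PFI-3, 564 and 676 under BI-9564, and 584 and 622 under P+B. The P+B and BI-9564 libraries were all below DMSO. The changes were -0.30 ± 0.11 under P+B (adjusted p = 0.153, and 0.0132 with the block) and -0.27 ± 0.11 under BI-9564 (adjusted p = 0.314, and 0.0469 with the block), all under 1.5-fold. The lactate exporter Slc16a3 (4 to 8 TPM) and Pdk1, the kinase that shuts off pyruvate dehydrogenase (11 to 28 TPM), overlapped DMSO in all compound groups.

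The group holds 2 glucose transporters. Slc2a1 (GLUT1) stood at 158 and 120 TPM in DMSO, 150 and 109 under PFI-3, 120 and 85 under BI-9564, and 100 and 88 under P+B. Both P+B libraries were below DMSO, with a change of -0.55 ± 0.21 (adjusted p = 0.179, and 0.0111 with the block, under 1.5-fold). Slc2a3 (GLUT3) stood at 133 and 105 TPM in DMSO, 176 and 136 under PFI-3, 104 and 68 under BI-9564, and 122 and 92 under P+B. Both PFI-3 libraries were above and both BI-9564 libraries below DMSO, with changes of 0.39 ± 0.23 and -0.49 ± 0.23 (adjusted p = 0.854 and 0.373). The difference of BI-9564 from PFI-3 was -0.87 ± 0.23, which did not pass (adjusted p = 0.181), and with the replicate block was called (SE 0.09, adjusted p = 0.0119, as were 1.48% of all genes). It was -1.17 without BI-9564 replicate 1 and -0.57, under 1.5-fold, without BI-9564 replicate 2. Of the 10 stem cell markers 9 had a positive log2 fold change under PFI-3 (median 0.36) and 9 a negative one under BI-9564 (median -0.28), with none passing without the block. Between BI-9564 and PFI-3 all 10 had a negative difference (median -0.70), 1 of them called without the block and 6 with it, and their part in the Slc2a3 values was not tested. Under P+B the Slc2a3 libraries overlapped DMSO (-0.16 ± 0.23). An antisense gene, Gm12868, overlaps an exon of Slc2a1, and whether the counting used strand is not stated. Exons of several other members also overlap other genes. Among them are Aldoa (Fam57b), Tpi1 (Spsb2) and Gapdh (Iffo1) on the opposite strand, and Hif1a (Gm49321) on the same strand. The genes that overlap Hk2 and Pfkfb3 do not overlap their exons.

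The oxygen sensor and its factor did not pass in any comparison. Hif1a stood between 65 and 79 TPM in all 8 libraries, with a change of -0.07 ± 0.11 under P+B. Egln1 was at 19 and 18 TPM in DMSO and 21 and 21 under P+B (0.17 ± 0.16, adjusted p = 0.557).

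Of the 7 HIF targets tested outside glycolysis, 5 had a positive and 2 a negative log2 fold change under P+B, and none passed without the block. P4ha1, a collagen prolyl hydroxylase subunit, stood at 13 and 10 TPM in DMSO, 12 and 10 under PFI-3, 16 and 15 under BI-9564, and 18 and 19 under P+B. Both P+B libraries were above all others (0.65 ± 0.20, adjusted p = 0.0992). Ero1l, which oxidises proteins in the endoplasmic reticulum, was at 31 and 37 TPM in DMSO, 37 and 34 under PFI-3, 44 and 42 under BI-9564, and 47 and 42 under P+B (0.38 ± 0.14, adjusted p = 0.146). Its BI-9564 and P+B libraries were all above those of DMSO and PFI-3. Bnip3, a mitophagy receptor, was at 9 and 10 TPM in DMSO, 15 and 10 under PFI-3, 16 and 10 under BI-9564, and 15 and 18 under P+B (0.73 ± 0.28, adjusted p = 0.167).

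Vegfa, the vascular growth factor, and Higd1a, a mitochondrial protein, overlapped DMSO under P+B. Vegfa had 6 and 1 TPM in DMSO, 4 and 7 under PFI-3, 5 and 7 under BI-9564, and 8 and 5 under P+B, and its change of 0.97 ± 0.58 was 0.07 without DMSO replicate 2, the library at 1 TPM, and 1.88 without DMSO replicate 1. Higd1a had 27 and 17 TPM in DMSO and 37 and 25 under P+B (0.49 ± 0.29, adjusted p = 0.368).

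Ndrg1 and Kdm3a were the 2 targets with a negative log2 fold change under P+B. Ndrg1, a stress-responsive gene, stood at 16 and 14 TPM in DMSO, 16 and 11 under PFI-3, 15 and 7 under BI-9564, and 10 and 3 under P+B. Both P+B libraries were below DMSO, with a change of -1.27 ± 0.49, which did not pass (adjusted p = 0.179, and 0.0413 with the block, which made it a call). The change was -1.997 without P+B replicate 1 and -0.54, under 1.5-fold, without P+B replicate 2. Kdm3a, a histone demethylase, stood at 104 and 86 TPM in DMSO, 97 and 95 under PFI-3, 70 and 66 under BI-9564, and 78 and 67 under P+B. The BI-9564 and P+B libraries were all below those of DMSO and PFI-3. Its changes of -0.47 ± 0.12 under BI-9564 (adjusted p = 0.164) and -0.38 ± 0.12 under P+B (adjusted p = 0.12) did not pass, and reached adjusted p = 0.0461 and 0.0374 with the block, under 1.5-fold.

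**Figure D3:**
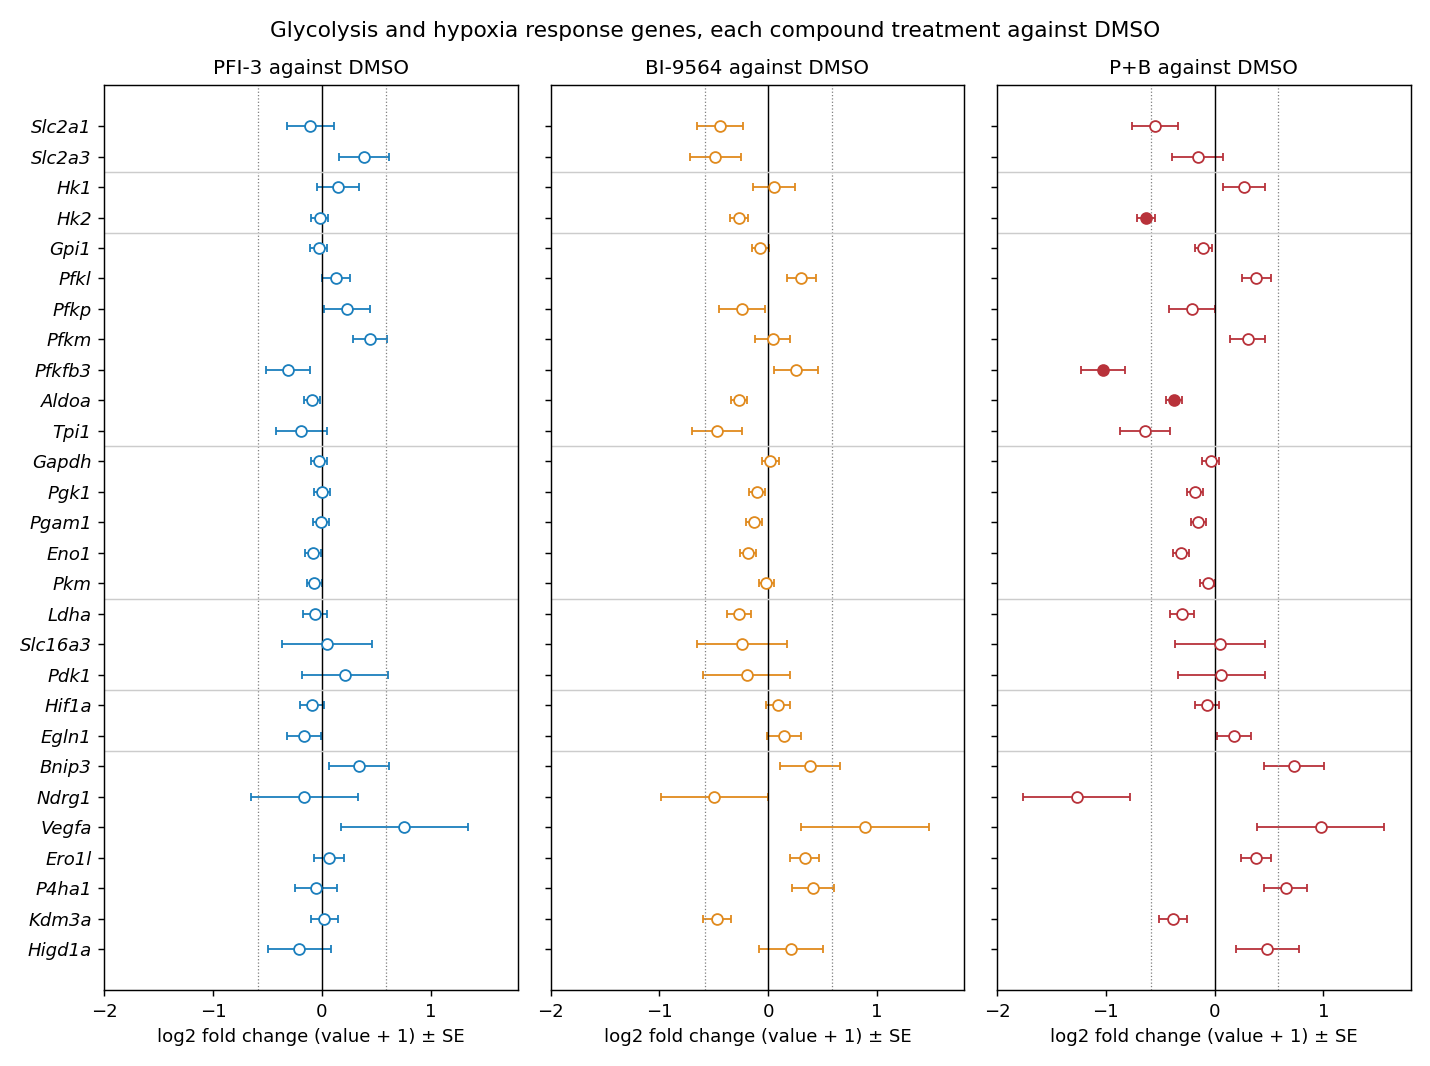
Log2 fold change (TPM + 1) ± SE of the 28 tested members for each compound treatment against DMSO (2 libraries each), grouped by role; filled points have an adjusted p under 0.05 and dotted lines mark 1.5-fold. Filled points occur only for Hk2, Pfkfb3 and Aldoa under P+B, at -0.63, -1.02 and -0.37.

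Under PFI-3 alone no member was called, and 0% of all tested genes were (limma, 694 of 10222 with an unadjusted p under 0.05). Of the members 1, Pfkm, had an unadjusted p under 0.05. The members' median was -0.02, against 0.02 for all genes. The PFI-3 libraries were both above DMSO in 2 members (Slc2a3 and Pfkm; 7.14%, against 16.5% of all genes) and both below in 1 (Pfkfb3; 3.57%, against 12.8%). Hk2 differed by -0.02 ± 0.08.

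Under BI-9564 alone no member was called either, and 0.108% of all genes were. Of the members 7 had an unadjusted p under 0.05, against 1523 of the 10222 genes. The members' median was -0.09, against 0.02 for all genes. Both BI-9564 libraries lay below DMSO in 10 members (35.7%, against 18.3% of all genes) and above in 4 (14.3%, against 22.9%). With the block 5 members had an adjusted p under 0.05, all lower and all under 1.5-fold (Aldoa, Kdm3a, Ldha, Slc2a3 and Tpi1), against 2.01% of all genes lower by that criterion.

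The comparisons against DMSO share its 2 libraries, so their values stand side by side only. Under BI-9564 and under P+B, Aldoa differed from DMSO by -0.27 and -0.37, Tpi1 by -0.47 and -0.64, Slc2a1 by -0.44 and -0.55, and Ero1l by 0.34 and 0.38. Other members were less alike in these treatments: Hk2 differed by -0.27 and -0.63, and Slc2a3 by -0.49 and -0.16. Pfkfb3 had a mean of 21.5 TPM in DMSO, 26 under BI-9564 and 10 under P+B. Between P+B and BI-9564 no member passed without the block, and 0.196% of all genes were called. With the block Pfkfb3 was called, as were 0.802% of all genes. The members' median difference was 0.01. Between P+B and PFI-3 the members' median was -0.14, against 0.03 for all genes, and Hk2 was the 1 member called, against 1.31% of all genes. With the block the count called was also 1 (3.43% of all genes), and 8 members had an adjusted p under 0.05, all lower, against 3.96% of all genes lower by that criterion. Between BI-9564 and PFI-3 no member was called, as against 0.108% of all genes, and 7 had an unadjusted p under 0.05, against 1448 of the 10222 genes. With the block Slc2a3 was called, and 2 members had an adjusted p under 0.05, both lower, against 1.71% of all genes.

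Members of the same pathways outside the group were read by the same tests. Of 35 further glycolysis genes 19 were tested. Under P+B 1.28% of all genes were called higher and 2.72% lower. Under P+B 1 rose, Pgm2, a phosphoglucomutase (6 and 5 TPM in DMSO, 6 and 5 under PFI-3, 7 and 10 under BI-9564, 13 and 14 under P+B; 1.16 ± 0.26, adjusted p = 0.0462). Another fell, Fbp2, the muscle form of fructose-1,6-bisphosphatase, which runs the phosphofructokinase step backwards (25 and 21 TPM in DMSO, 10 and 7 under PFI-3, 9 and 6 under BI-9564, 7 and 3 under P+B; -2.08 ± 0.37, adjusted p = 0.0199). All 6 compound libraries of Fbp2 were below both DMSO libraries. The call of Pgm2 was lost with any library left out (adjusted p between 0.0629 and 0.189), and that of Fbp2 without either DMSO library (0.126 and 0.103) or P+B replicate 2 (0.112). The list's median was 0.07, against 0.06 for all genes.

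None of 11 tested genes for the entry of pyruvate into mitochondria passed under P+B (2 at an unadjusted p under 0.05). Of all genes 2306 of 10222 reached that unadjusted p under P+B. Pdha1 and Pdhb, subunits of pyruvate dehydrogenase, had changes near 0, with Pdha1 at 157 and 145 TPM in both DMSO and P+B and Pdhb at 0.06 ± 0.11. None of 7 pentose phosphate genes passed (0 at an unadjusted p under 0.05), with Taldo1 at -0.04 ± 0.09 and Tkt at -0.17 ± 0.16. None of 10 tested HIF pathway components passed without the block (3 at an unadjusted p under 0.05), and Hsp90ab1, a chaperone that binds HIF1A, differed by 0.13 ± 0.05 (adjusted p = 0.185, and 0.0404 with the block, under 1.5-fold). Hsp90aa1, the other cytosolic form of this chaperone, stood at 3017 and 2552 TPM in DMSO and 2522 and 2011 under P+B, both below both DMSO libraries (-0.30 ± 0.13, adjusted p = 0.227, and 0.00568 with the block, under 1.5-fold). With the block Cited2, which competes with HIF1A for its coactivator, was called under P+B (-0.61, adjusted p = 0.0419), where 4.1% of all genes were called lower.

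Of 37 further HIF targets 25 were tested, and under P+B 3 fell and 0 rose past both thresholds, of which 2 are described here. Of all genes 2.72% fell and 1.28% rose past both. Edn1, the vasoconstrictor endothelin 1, stood at 48 and 36 TPM in DMSO, 25 and 21 under PFI-3, 25 and 23 under BI-9564, and 10 and 13 under P+B (-1.78 ± 0.20, adjusted p = 0.00301). All single-compound libraries of Edn1 lay between those of DMSO and P+B, and its call held with each library left out. With only the 4 libraries compared it was lost, as was every other call in the table. Bhlhe40, a repressor of the clock and of metabolism, stood at 52 and 31 TPM in DMSO and 20 and 16 under P+B (-1.12 ± 0.25, adjusted p = 0.0444), a call lost with any library left out (adjusted p between 0.05 and 0.225). The list's median was -0.04, against 0.06 for all genes. Wsb1, part of a ubiquitin ligase, had an adjusted p of 0.0419 at 0.46 ± 0.10, under 1.5-fold, and Ddit4, an inhibitor of mTORC1 signalling, was called with the block (1.12, adjusted p = 0.0245).

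The 2 libraries of a group differed in the same direction across groups for several members. Of the 28 tested members 6 were lower in replicate 2 in all 4 groups (Slc2a1, Slc2a3, Tpi1, Pgk1, Ndrg1 and Kdm3a; 12.8% of all genes were), and 7 were higher in all 4 (Aldoa, Gapdh, Pgam1, Eno1, Pkm, Ldha and Pdk1; 11.1% of all genes were). In the fit with the block the difference of replicate 2 from replicate 1 was -0.43 ± 0.06 for Tpi1 (adjusted p = 0.0119), -0.43 ± 0.06 for Slc2a3 (adjusted p = 0.0129), -0.38 ± 0.07 for Slc2a1 (adjusted p = 0.0234) and 0.18 ± 0.04 for Ldha (adjusted p = 0.0474), and 3.77% of all genes passed the same p threshold. Hk2 differed by 0.04 ± 0.05 between the replicate numbers. What the replicate numbers stand for is not stated, and Jun and the sum of stem cell markers moved with them.

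**Figure D4:**
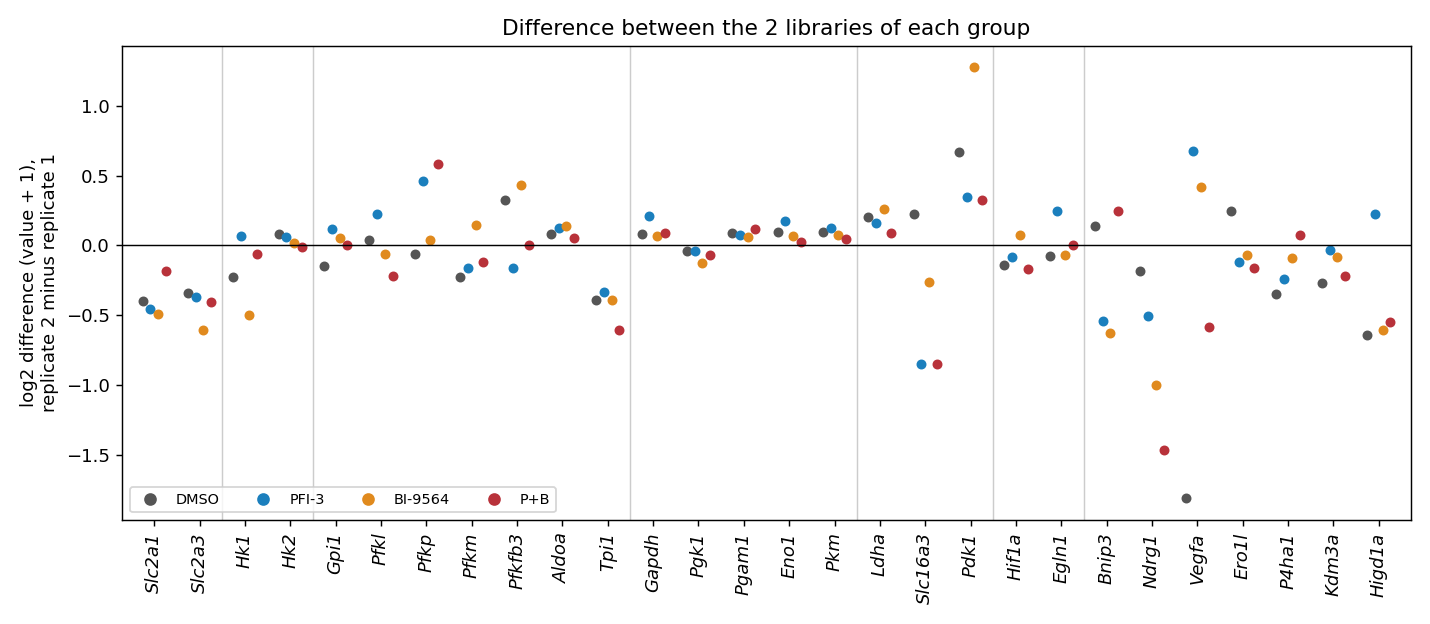
Difference of replicate 2 from replicate 1 (log2 of TPM + 1) for the 28 tested members in each of the 4 groups. All 4 points of Slc2a1, Slc2a3, Tpi1 and Ndrg1 lie below 0 and all 4 of Pdk1 and Ldha above it, while those of Hk2 lie between -0.01 and 0.08.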

How the data were processed

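RNA-seq of 8 libraries was analysed from a table of TPM values that the authors deposited as whole numbers, used here as a score because rounded TPM are not counts. The submitters' processing notes name bcl2fastq, Bowtie2 2.2.5, RSEM 1.3.0 and mm10. Depth is unknown from such values, and count tests were not run. Values were taken as log2(TPM + 1), and genes whose mean reached 5 (10222 in all) were fitted over all 4 groups with limma 3.58.1 (R 4.3.3, intensity trend, residual df 4, prior df 4.25). P-values were adjusted by Benjamini-Hochberg over all tested genes, and a call also needed a fold of at least 1.5. The design planned a fit without the replicate number, and a block on it was the alternative. Deviations of same-numbered libraries correlated at 0.143 to 0.236 over all pairs of groups when all tested genes were used. Over the tested members alone the correlations ran from -0.222 (DMSO with PFI-3) to 0.577 (PFI-3 with BI-9564). Values from the fit with the block, which treats same-numbered libraries as pairs, are given beside those without it, although no label says that the numbers mark pairs. An exact permutation test of 2 against 2 cannot go below p = 0.333 and was not used. Coordinates and overlaps come from GENCODE M21, promoters from RefSeq, and copies from blastn 2.17.0 (at least 90% identity over 50% of the transcript). The fit was tested on simulated data. The 32 members and all other lists were chosen with earlier results of these data known. All members are named; those with an adjusted p under 0.05, and the 5 others with the largest change with P+B, have all library values. From each other list with tested genes, those past the thresholds (at most 3 per comparison), or else the 2 with the highest mean, are named. Any further gene was chosen after its values were seen. Of the further HIF targets past the thresholds, 1 is not reported here. Alternatives were pseudocounts of 0.5 and 5, filters at a mean of 1, 20 and none, quantile normalization, median centring, no trend, the 4 libraries compared alone, no fold threshold, adjusted p under 0.01, and each library left out. Sums of Eno1 and Gapdh with their copies were added after seeing the data.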

Additional observations from a re-analysis of the deposited data

Results flagged for a closer look

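Slc2a3 lay on opposite sides of DMSO in the libraries of the 2 single compounds, with neither change against DMSO past the threshold (limma, adjusted p = 0.854 for PFI-3 and 0.373 for BI-9564). Both PFI-3 libraries were above and both BI-9564 libraries below both DMSO libraries, and the log2 difference of BI-9564 from PFI-3 was -0.87. This difference did not pass without the replicate block (limma, adjusted p = 0.181) and passed with it (adjusted p = 0.0119). It was -1.17 without BI-9564 replicate 1 and -0.57 without BI-9564 replicate 2.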

How the results depend on the processing

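Depth cannot be read from rounded TPM, so no counting error is given, and members near 5 TPM are limited by steps of 1. With P+B against DMSO 2 members were called, and the count was 4 with the replicate block, 1 with a mean of at least 20 (which leaves out Pfkfb3), 1 without a filter, 1 after quantile normalization, 1 at an adjusted p under 0.01, 0 with only the 4 libraries compared, and 0 to 2 with a library left out. Of all genes 409 were called, and the count was 718 with the block, 327 with a mean of at least 20, 201 without a filter, 386 after quantile normalization, 124 at the stricter p, 0 with only the 4 libraries, and 68 to 268 with a library left out. Against PFI-3 the count of 1 fell to 0 without a filter, after quantile normalization, without a trend, with only the 4 libraries and at the stricter p, and was 0 to 1 with a library left out, while the count of all genes, otherwise 134, was 6, 142, 4, 0 and 9 in that order, and 0 to 51 with a library left out. With the replicate block 1 member was called for P+B against BI-9564 and 1 for BI-9564 against PFI-3, where none was without it, and of all genes 82 and 151 were called with the block and 20 and 11 without. The block changed no other call among the members. The members' median log2 fold change with P+B against DMSO was -0.0677 with a mean of at least 1 and without a filter, -0.15 with a mean of at least 20, -0.10 after quantile normalization, -0.18 after median centring, and -0.121 to -0.0878 with a library left out. Against PFI-3 the P+B median was -0.13 with a pseudocount of 5, -0.0805 with a mean of at least 1 and without a filter, -0.15 with a mean of at least 20, -0.19 after median centring, and -0.15 to -0.11 with a library left out. Against BI-9564 it was 0.0369 with a mean of at least 1 and without a filter, -0.0304 with a mean of at least 20, 0.00249 after quantile normalization, -0.0365 after median centring, and -0.0259 to 0.0096 with a library left out. With BI-9564 against DMSO it was -0.13 with a mean of at least 20, -0.13 after median centring and -0.100 to -0.0472 with a library left out, and with PFI-3 against DMSO -0.0712 after median centring and -0.0239 to 0.00906 with a library left out. The lone library left in such a group was assumed to vary like the other groups. No called member changed sign under any of these alternatives. The cause of these changes was not tested.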
